A study of Daphnia magna with 9 samples.

Results

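Genes of the germ line, of the piRNA pathway and of meiosis were followed in RNA-seq libraries of whole female Daphnia magna. The members were the 41 gene IDs whose deposited gene name matched vasa, nanos, piwi, argonaute, aubergine, tudor, maelstrom, germ cell, meiosis, meiotic, SPO11, synaptonemal, pumilio, bicaudal, boule or vitellogenin receptor, out of 42462 gene IDs. They were sorted by name into 17 small RNA and piRNA proteins, 14 proteins of germ cell fate and translational control, 6 meiosis proteins and 4 vitellogenin receptors. The names were given by sequence similarity to other species, so a role known from flies or mammals need not hold in Daphnia.

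The starved mutant, the starved wild type and the nutrient-rich mutant were each measured in 3 libraries, and each library held the RNA of 5 pooled females. The mutant was a clonal line made with CRISPR/Cas9 that carried frameshifts and premature stop codons in DNMT3.1, and the wild type was the NIES strain. DNMT3.1 belongs to the DNA methyltransferase 3 family. The authors describe its methyltransferase domain as diverged, without most motifs of the active enzymes. Starved animals received 8-fold less Chlorella algae than nutrient-rich animals. All were sampled at the second clutch on day 12, and their eggs were removed before RNA was extracted. A nutrient-rich wild type was not analysed here, so the lines were compared under starvation alone and the food levels in the mutant alone. All mutant libraries came from the same clonal line. Any other difference between that line and the wild type strain therefore cannot be told apart from the mutation. The sources give 3 repeats of each treatment and do not say whether these came from separate cultures or days, so the p-values measure only the spread between these libraries.

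PIWI proteins such as Siwi, Ago3 and aubergine carry piRNAs, short RNAs that direct the silencing of transposons in germ cells. Tudor proteins and maelstrom are other proteins of that pathway, and vasa is a DEAD-box RNA helicase used as a germ line marker in many animals. Nanos, pumilio and bicaudal C repress or localize mRNAs, best known from the Drosophila ovary and embryo. Yolk protein made outside the ovary enters the oocyte through the vitellogenin receptor. Daphnia females lay parthenogenetic eggs by a modified meiosis.

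Each library held between 9613033 and 11806614 counted reads in the starved mutant, 9270993 to 10106055 in the starved wild type and 10260014 to 10884458 in the nutrient-rich mutant. Levels are given in CPM, counts scaled to a common library size by TMM, which sets the bulk of genes equal between libraries. Replicate 2 of the nutrient-rich mutant stood apart from the other libraries. Its log2 CPM correlated at 0.917 and 0.928 with replicates 1 and 3, against 0.973 between those and 0.969 to 0.984 within the other groups. Its TMM factor was 0.749, against 0.928 for replicates 1 and 3. The tests were therefore also run without it. DNMT3.1 (Dapma7bEVm006722t1) had 87.6, 40.0 and 61.7 CPM in the starved mutant, 85.2, 111.4 and 79.2 CPM in the starved wild type and 10.8, 4.40 and 9.69 CPM in the nutrient-rich mutant. Its mRNA did not separate the starved lines (log2 fold change -0.54 ± 0.34, edgeR, adjusted p = 0.464). The mutation is a frameshift, which a count of reads over the gene does not check.

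Of the 41 genes, 34 had enough counts to be tested among 18675 features. The 7 others were a tudor and KH domain protein and an argonaute-2 with 0 reads in all 9 libraries, Nanos homolog 2 with 36 reads in all, 2 bicaudal C genes with 45 and 41, the meiosis-specific protein MEIOB with 37 and a vitellogenin receptor with 27. No gene name matched synaptonemal or boule. The MEIOB gene (Dapma7bEVm011520t1), whose mammalian namesake binds single-stranded DNA during meiosis, had 7, 10 and 9 reads in the starved mutant, 1, 0 and 5 in the starved wild type and 1, 2 and 2 in the nutrient-rich mutant. The starved mutant libraries held most of these reads, at counts too low for the test, and the gene was singled out after its values were seen.

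Compared per length, with the RPKM values of the authors, the vitellogenin receptor Dapma7bEVm000342t1 was the most abundant member, at 167.6 ± 10.5 RPKM in the starved mutant and 95.8 ± 1.27 RPKM in the starved wild type (SD, n = 3 each). A bicaudal C homolog (Dapma7bEVm000644t1) came next, at 97.7 ± 9.30 RPKM in the starved mutant and 62.4 ± 6.44 RPKM in the starved wild type. Siwi (Dapma7bEVm001397t1) stood at 79.9 ± 10.4 RPKM in the starved mutant and 45.3 ± 2.16 RPKM in the starved wild type, and vasa (Dapma7bEVm009522t1) at 74.0 ± 0.882 RPKM and 58.1 ± 1.55 RPKM in these groups. In the starved mutant Siwi and vasa did not differ beyond their spread. Ago3 (Dapma7bEVm003541t1) was lower, at 19.1 ± 1.55 RPKM in the starved mutant and 13.3 ± 0.321 RPKM in the starved wild type. The meiosis gene SPO11, whose product makes the DNA breaks of meiosis, averaged 0.657 RPKM over the 9 libraries. Vasa, Siwi and yolk receptor mRNA were thus well measured in these whole bodies, whereas nanos, SPO11 and MEIOB were at low counts.

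**Figure D1:**
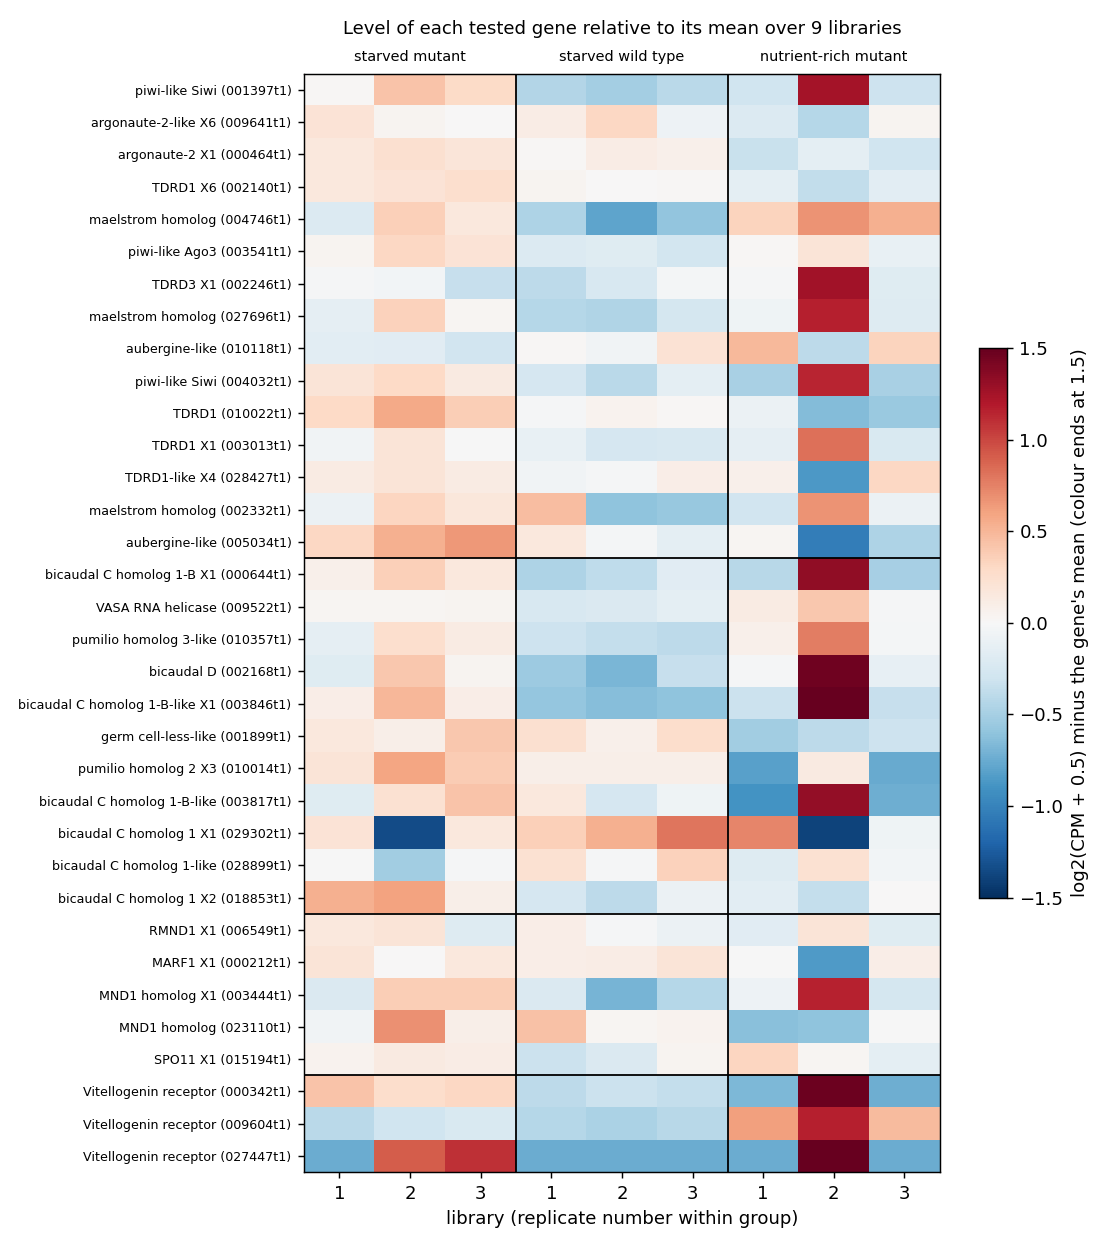
Level of each of the 34 tested genes (rows, ordered by role) in each of the 9 libraries (columns, 3 per group), as log2 CPM relative to the gene's mean over all libraries. Red is above and blue below the mean. Replicate 2 of the nutrient-rich mutant is the most strongly coloured column, and the starved mutant is more often red than the starved wild type.

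The first comparison, starved mutant against starved wild type, asked which of these genes differed between the lines when food was short. A gene was called at an adjusted p under 0.05 (edgeR quasi-likelihood test, Benjamini-Hochberg over all 18675 features) and a fold change of at least 1.5. By this rule 1 of the 34 genes, a maelstrom homolog, was higher in the starved mutant and 0 were lower, 2.94% of the members, while 7.16% of all tested features were called, 2.92% higher and 4.24% lower. DESeq2 and limma-voom each called 1 higher and 0 lower as well, and 4 of the 34 had an unadjusted p under 0.05 in edgeR. Small and mostly upward differences ran through the rest. The log2 fold change was above 0 in 29 of the 34 genes and its median was 0.31, whereas over all features 49.7% were above 0 and the median was -0.0025. In 22 genes every starved mutant library lay above every starved wild type library and in 2 every one lay below, where 20.1% and 21.1% of all features did so.

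Without replicate 2 of the nutrient-rich mutant, a library that is not part of this comparison but shares in the estimate of its spread, 5 of the 34 were higher and 0 lower, with 13.8% of 19358 features called, 6.23% higher and 7.60% lower. The 4 genes added were Siwi (Dapma7bEVm001397t1), bicaudal D (Dapma7bEVm002168t1), a bicaudal C homolog (Dapma7bEVm003846t1) and the vitellogenin receptor Dapma7bEVm000342t1. Their fold changes hardly moved. That library is in neither group and reaches these values almost only through the scaling, so this is no check on them. With these 4 genes, 10 genes had an adjusted p under 0.05 in this fit alone, the others at less than 1.5-fold. The direction turned round in 0 of the 34, which for the same reason is no check either. Whole bodies were measured, so the tissue in which each mRNA differed is not known here or below. More germ cells in a body and more RNA in each germ cell cannot be told apart either.

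**Figure D2:**
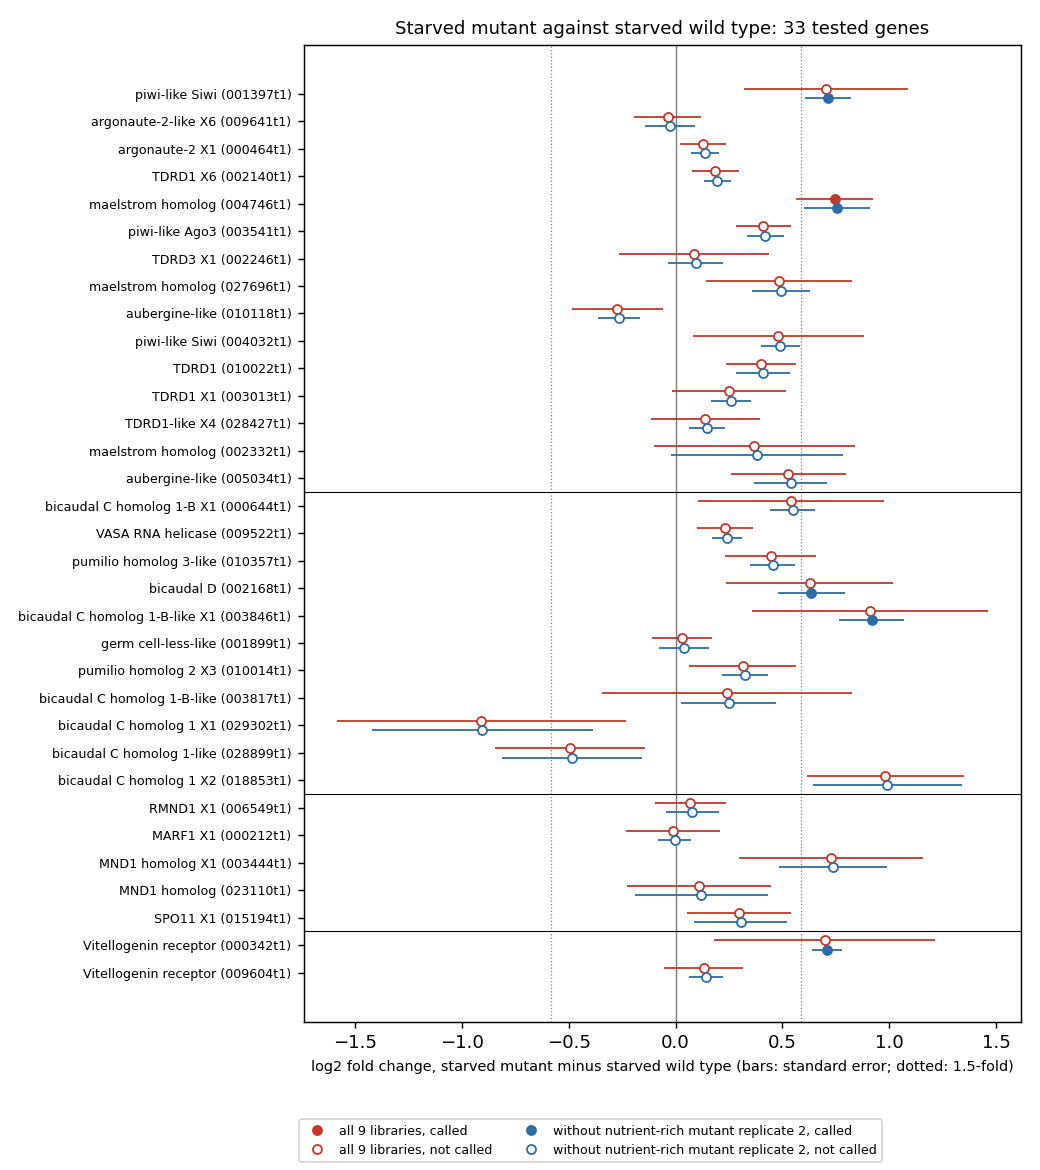
Log2 fold change of each tested gene, starved mutant against starved wild type, with its standard error, from all 9 libraries (red) and without replicate 2 of the nutrient-rich mutant (blue). Filled points were called and open ones were not, dotted lines mark a 1.5-fold change, and a vitellogenin receptor with reads in 3 libraries alone was left out. The estimates of both fits lie side by side, as that library is in neither of the groups compared. The standard errors of Siwi, bicaudal C and the vitellogenin receptor are much shorter without that library.

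Among the small RNA proteins, the called gene was the maelstrom homolog Dapma7bEVm004746t1. It had 28.3, 41.8 and 36.4 CPM in the starved mutant, 23.6, 18.6 and 21.4 CPM in the starved wild type and 41.1, 52.3 and 47.4 CPM in the nutrient-rich mutant. The starved mutant lay above the starved wild type in every library, by 0.75 ± 0.18 on the log2 scale (SE, edgeR, adjusted p = 0.0397), and its highest library reached the lowest nutrient-rich one. This call was lost in 7 of 17 alternatives, with the replicate block and without starved mutant replicate 2 or 3, any starved wild type library or nutrient-rich replicate 3, and the adjusted p ran between 0.00357 and 0.167. Against the nutrient-rich mutant it stood at -0.40 ± 0.18 in the starved mutant (edgeR, adjusted p = 0.136) and fell by 1.15 in the starved wild type (SE 0.18, adjusted p = 0.0045). A second maelstrom homolog (Dapma7bEVm027696t1) had a log2 fold change of 0.48 between the starved lines and another (Dapma7bEVm002332t1), with 188 reads in all, one of 0.37, and neither passed the test. Without nutrient-rich replicate 2, Dapma7bEVm027696t1 had 0.49 ± 0.14 (edgeR, adjusted p = 0.0374), past the p threshold and under the fold threshold. The feature IDs of Dapma7bEVm027696t1 and Dapma7bEVm002332t1 carry the same location label, and whether reads were shared between them was not tested.

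Siwi, the silkworm name of a PIWI protein, was the most abundant of the small RNA genes per length. It had 217.0, 287.6 and 261.2 CPM in the starved mutant, 157.6, 149.8 and 162.3 CPM in the starved wild type and 173.8, 508.0 and 172.3 CPM in the nutrient-rich mutant. The starved lines did not overlap, and the nutrient-rich libraries were split, with replicate 2 far above all others. The difference between the starved lines was 0.71 ± 0.38 with all libraries (edgeR, adjusted p = 0.373) and 0.71 ± 0.11 without that replicate (adjusted p = 0.00398). The other Siwi gene (Dapma7bEVm004032t1) ran from 25.8 to 81.0 CPM over the 9 libraries, with a difference of 0.48 ± 0.40 between the starved lines that was not called (edgeR, adjusted p = 0.602). Without that replicate the adjusted p was 0.00992, at 0.49 ± 0.09, still under 1.5-fold.

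Ago3, the partner of Siwi and aubergine in the ping-pong cycle that amplifies piRNAs in silkworms and flies, had 58.5, 70.6 and 66.1 CPM in the starved mutant, 49.5, 50.3 and 47.2 CPM in the starved wild type and 57.6, 65.4 and 53.0 CPM in the nutrient-rich mutant. Every starved mutant library was above every starved wild type one, yet the difference of 0.41 ± 0.13 did not pass (edgeR, adjusted p = 0.098) and was below 1.5-fold. It was 0.42 ± 0.09 without nutrient-rich replicate 2 (edgeR, adjusted p = 0.0141), still below 1.5-fold. Both Siwi genes and Ago3 were thus higher in all 3 starved mutant libraries than in any starved wild type library, while another PIWI gene, aubergine-like Dapma7bEVm010118t1, was lower in all 3.

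The aubergine-like genes went different ways. Aubergine is a PIWI protein of Drosophila. Dapma7bEVm005034t1 had 11.3, 13.2 and 14.4 CPM in the starved mutant, 10.1, 8.80 and 8.08 CPM in the starved wild type and 9.23, 4.15 and 6.42 CPM in the nutrient-rich mutant. The starved mutant was above both other groups in every library, and only the difference from the nutrient-rich mutant was called, at 0.97 ± 0.27 (edgeR, adjusted p = 0.0302). It was called in 11 of 17 alternatives, and not with only the 6 libraries compared or without starved mutant replicate 2 or 3, starved wild type replicate 1 or 2 or nutrient-rich replicate 3. Dapma7bEVm010118t1, whose feature ID carries the same location label, ran from 32.1 to 59.4 CPM. Its starved mutant libraries lay below all starved wild type ones, at 34.3 to 37.6 CPM against 40.6 to 49.0 CPM. The log2 fold changes were -0.27 between the starved lines and -0.40 between the starved and the nutrient-rich mutant, neither called. Without replicate 2 of the nutrient-rich mutant the difference between the mutants was -0.63 and was called (edgeR, adjusted p = 0.00269).

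Of the tudor genes, which encode scaffold proteins of germ granules, Dapma7bEVm010022t1 was called between the mutants. It had 55.4, 66.4 and 57.9 CPM in the starved mutant, 44.3, 46.4 and 45.5 CPM in the starved wild type and 42.2, 28.4 and 30.2 CPM in the nutrient-rich mutant. The groups did not overlap, and the starved mutant was higher than the nutrient-rich mutant by 0.83 ± 0.17 (edgeR, adjusted p = 0.00663), a call kept in 17 of 17 alternatives. Another tudor domain 1 gene (Dapma7bEVm002140t1) had 110.2, 114.4 and 117.4 CPM in the starved mutant, 101.7, 99.1 and 99.8 CPM in the starved wild type and 89.6, 76.2 and 88.3 CPM in the nutrient-rich mutant. These groups did not overlap either, but the differences were below 1.5-fold, at 0.19 ± 0.11 between the starved lines and 0.43 ± 0.11 between the mutants (edgeR, adjusted p = 0.424 and 0.021). The 3 remaining tested tudor genes, TDRD3 (Dapma7bEVm002246t1), Dapma7bEVm003013t1 and Dapma7bEVm028427t1, lay between 0.09 and 0.25 in the first comparison and were called in neither.

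Argonaute-2 carries small interfering RNAs in Drosophila and acts outside the germ line too. The argonaute-2 gene Dapma7bEVm000464t1 had 116.6, 124.0 and 119.4 CPM in the starved mutant, 105.9, 112.9 and 110.7 CPM in the starved wild type and 83.2, 94.5 and 85.1 CPM in the nutrient-rich mutant. The groups did not overlap, with 0.13 ± 0.11 between the starved lines and 0.45 ± 0.11 between the mutants (edgeR, adjusted p = 0.607 and 0.0142), both under the fold threshold. The argonaute-2-like gene Dapma7bEVm009641t1 had 187.0, 167.8 and 163.1 CPM in the starved mutant, 175.1, 201.4 and 154.7 CPM in the starved wild type and 140.6, 121.1 and 167.7 CPM in the nutrient-rich mutant, and all 3 groups overlapped.

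Among the genes of germ cell fate and translational control, 0 of 11 were called between the starved lines by edgeR with all libraries (1 at an unadjusted p under 0.05) and 2 were higher without replicate 2 of the nutrient-rich mutant. Of all features, 7.16% were called with all libraries and 6.23% were higher without that replicate. Vasa had 196.3, 196.5 and 197.8 CPM in the starved mutant, 162.8, 166.2 and 174.1 CPM in the starved wild type and 210.2, 254.1 and 189.8 CPM in the nutrient-rich mutant. The starved lines did not overlap, but the difference was small, 0.23 ± 0.13 (edgeR, adjusted p = 0.396), and starved and nutrient-rich mutants overlapped. The difference between the starved lines was 0.24 ± 0.07 without nutrient-rich replicate 2 (edgeR, adjusted p = 0.0496), below 1.5-fold.

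Bicaudal C is an RNA-binding protein needed for oocyte patterning in Drosophila. Its homolog Dapma7bEVm000644t1 had 251.3, 305.6 and 266.1 CPM in the starved mutant, 173.1, 182.8 and 210.7 CPM in the starved wild type and 177.6, 598.2 and 168.2 CPM in the nutrient-rich mutant. Its starved lines did not overlap, at 0.54 ± 0.43 with all libraries (edgeR, adjusted p = 0.588). Without nutrient-rich replicate 2 the difference was 0.55 ± 0.11, past the p threshold and under the fold threshold (adjusted p = 0.0109). The homolog Dapma7bEVm003846t1, at 5.50 to 31.9 CPM, was called there without that library, at 0.92 (edgeR, adjusted p = 0.00635). The bicaudal C genes did not all go one way: Dapma7bEVm029302t1 and Dapma7bEVm028899t1, with 228 and 123 reads in all, had -0.91 and -0.49 between the starved lines, and Dapma7bEVm018853t1, with 95 reads, had 0.98, none of them called.

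Bicaudal D, an adaptor that links cargo such as mRNAs to the dynein motor in Drosophila oocytes, had 108.0, 162.8 and 126.7 CPM in the starved mutant, 83.9, 76.6 and 96.9 CPM in the starved wild type and 121.5, 337.8 and 113.1 CPM in the nutrient-rich mutant. Each starved mutant library exceeded the starved wild type, by 0.63 ± 0.39 (edgeR, adjusted p = 0.454), and without nutrient-rich replicate 2 the difference of 0.64 was called (adjusted p = 0.0259). The pumilio 3-like gene (Dapma7bEVm010357t1), whose human namesake is a nucleolar protein, had 105.1, 138.5 and 126.1 CPM in the starved mutant, 93.4, 90.1 and 88.2 CPM in the starved wild type and 122.4, 198.0 and 113.5 CPM in the nutrient-rich mutant. Its starved lines did not overlap, at 0.44 ± 0.21, and it was not called (edgeR, adjusted p = 0.302). It had 0.45 ± 0.10 without nutrient-rich replicate 2 (edgeR, adjusted p = 0.0212), again under 1.5-fold.

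Pumilio 2 and germ cell-less were called between the mutants and not between the starved lines, a contrast between calls that was not tested. Pumilio 2 (Dapma7bEVm010014t1), an RNA-binding repressor of translation, had 28.7, 38.0 and 32.9 CPM in the starved mutant, 26.7, 26.8 and 26.7 CPM in the starved wild type and 14.1, 27.5 and 14.6 CPM in the nutrient-rich mutant. The starved mutant was higher than the nutrient-rich mutant by 0.83 ± 0.25 (edgeR, adjusted p = 0.0405), and by 1.21 without its replicate 2 (adjusted p = 0.000293), which lay near the starved libraries. The call held in 8 of 17 alternatives. It was lost with only the 6 libraries compared and without any library other than nutrient-rich replicate 2. Germ cell-less (Dapma7bEVm001899t1), named for a Drosophila gene needed to form germ cells, had 23.7, 22.6 and 28.2 CPM in the starved mutant, 25.1, 22.4 and 25.5 CPM in the starved wild type and 14.6, 16.0 and 17.1 CPM in the nutrient-rich mutant. Both starved groups were above all nutrient-rich libraries, by 0.65 ± 0.14 in the mutant and 0.62 ± 0.14 in the wild type (edgeR, adjusted p = 0.0108 and 0.0229), and the starved lines overlapped. The call between the mutants held in 14 of 17 alternatives, and not with only the 6 libraries compared or without starved mutant replicate 3 or nutrient-rich replicate 1. That of the starved wild type held in 11 of 17, and not with only the 6 libraries compared, with every feature of at least 1 count, or without any 1 of its own libraries or nutrient-rich replicate 1.

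Of the meiosis genes, 5 were tested and 0 were called in either direction in any of the 3 comparisons, by edgeR with all libraries or without nutrient-rich replicate 2. With all libraries 0 had an unadjusted p under 0.05, and by DESeq2 and limma-voom 0 were called. Of all features 7.16%, 23.1% and 13.9% were called in these comparisons with all libraries, shares at which few of 5 genes would be called, so nothing is read from this count. SPO11 (Dapma7bEVm015194t1) ran from 2.55 to 4.27 CPM and differed by 0.30 ± 0.24 between the starved lines (edgeR, adjusted p = 0.598). The MND1 homologs, named for a partner of HOP2 in meiotic strand exchange, ran from 2.20 to 9.30 CPM (Dapma7bEVm003444t1) and from 1.59 to 4.70 CPM (Dapma7bEVm023110t1). Their differences between the starved lines were 0.73 ± 0.43 and 0.11 ± 0.34. MARF1 (Dapma7bEVm000212t1), a regulator of meiosis in mouse oocytes, was at 31.2 to 64.4 CPM, with -0.01 ± 0.22 between the starved lines. RMND1 (Dapma7bEVm006549t1) is a mitochondrial protein in mammals and entered by its name alone, at 0.07 ± 0.17.

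The vitellogenin receptors, members of the LDL receptor family, differed from each other in their pattern. Dapma7bEVm000342t1 had 1096, 979.4 and 1013 CPM in the starved mutant, 618.2, 651.3 and 633.5 CPM in the starved wild type and 509.0, 2262 and 489.9 CPM in the nutrient-rich mutant. The starved lines did not overlap, and 2 of 3 nutrient-rich libraries lay below both. Between the starved lines the difference was 0.70 ± 0.52 with all libraries (edgeR, adjusted p = 0.546) and 0.71 ± 0.07 without nutrient-rich replicate 2 (adjusted p = 0.000972). Dapma7bEVm009604t1 had 34.1, 36.9 and 38.5 CPM in the starved mutant, 33.5, 32.5 and 34.0 CPM in the starved wild type and 69.6, 102.8 and 63.2 CPM in the nutrient-rich mutant. All starved libraries were below all nutrient-rich ones, with log2 fold changes of -1.10 ± 0.18 in the starved mutant and -1.24 ± 0.18 in the starved wild type (edgeR, adjusted p = 0.00272 and 0.00362), and both calls held in 17 of 17 alternatives. A further receptor gene, Dapma7bEVm027447t1, carries the location label of the most abundant one. It had 14 and 15 reads in starved mutant replicates 2 and 3, 33 in nutrient-rich replicate 2 and 0 in the other 6 libraries. Whether reads were shared between these receptor genes was not tested.

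**Figure D3:**
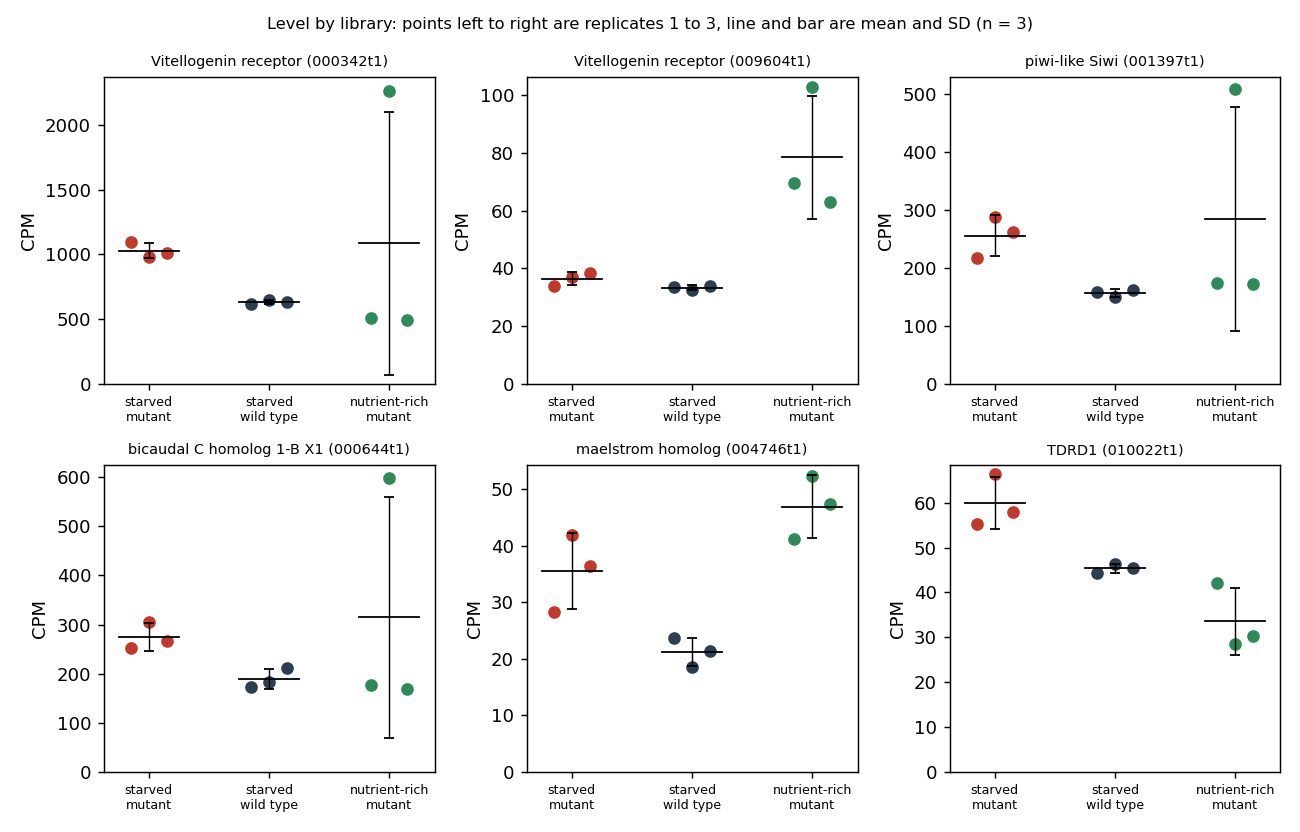
Level in CPM of 6 genes in each library, with starved mutant left, starved wild type in the middle and nutrient-rich mutant right. Points are replicates 1 to 3, the line is the mean and the bar the SD (n = 3). For Siwi, bicaudal C and the vitellogenin receptor Dapma7bEVm000342t1 the middle nutrient-rich point stands far above all others, and for maelstrom, tudor domain 1 and Dapma7bEVm009604t1 the nutrient-rich points are spread less widely.

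The second comparison, starved against nutrient-rich mutant, asked which genes depended on food in the mutant line. It shares the starved mutant libraries with the first. Of the 34 genes 4 were higher when starved (the tudor gene Dapma7bEVm010022t1, aubergine-like Dapma7bEVm005034t1, germ cell-less and pumilio 2) and 1 was lower (the vitellogenin receptor Dapma7bEVm009604t1), 14.7% of the members, where 23.1% of all features were called, 11.1% higher and 12.0% lower. In 7 genes the starved libraries lay wholly above the nutrient-rich ones and in 1 wholly below, where 20.0% and 20.3% of all features did so. The median log2 fold change was -0.09, against -0.07 over all features.

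Much of this comparison turned on replicate 2 of the nutrient-rich mutant. Without it 9 genes were higher and 2 lower, with 28.5% of all features called (14.4% higher and 14.1% lower), and the median was 0.30, against 0.01 over all features. Siwi Dapma7bEVm004032t1, bicaudal C Dapma7bEVm000644t1, its homologs Dapma7bEVm003846t1 and Dapma7bEVm003817t1 and the vitellogenin receptor Dapma7bEVm000342t1 then joined the higher genes, at 0.70, 0.66, 0.61, 1.12 and 1.04, while with all libraries each had a negative log2 fold change, and aubergine-like Dapma7bEVm010118t1 joined the lower ones. In all, 15 of the 34 genes changed direction without that library. Scaling by library totals in place of TMM moved the median of all features by 0.36 and the split of all calls to 3446 higher and 1138 lower, against 2078 and 2241 by TMM. It called 7 of the 34 genes as higher, adding the argonaute-2 genes and tudor Dapma7bEVm002140t1.

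Within the nutrient-rich mutant, replicate 2 was above both other libraries in 22 of the 34 genes and below both in 9, or 64.7% above, where 40.7% of all tested features were above. By library totals in place of TMM, 18 genes were above and 14 below, and 10 exceeded the mean of replicates 1 and 3 more than 2-fold. The share of all features was not computed by library totals. By TMM, replicate 2 exceeded that mean more than 2-fold in 12 genes, 35.3%, where 13.2% of all features did so. The largest ratios were 5.06 and 4.63 for the bicaudal C homologs Dapma7bEVm003817t1 and Dapma7bEVm003846t1, 4.53 for the vitellogenin receptor Dapma7bEVm000342t1, 3.46 for bicaudal C Dapma7bEVm000644t1 and 3.14 for Siwi Dapma7bEVm004032t1. The tudor gene Dapma7bEVm028427t1 and bicaudal C Dapma7bEVm029302t1 were the only tested genes at less than 0.5 of that mean, at 0.474 and 0.171. The DNA replication and mitosis genes were also high in that library, at 5236 summed CPM, against 2390 and 2140 in the other nutrient-rich libraries. What set this library apart was not tested.

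The remaining comparison, starved wild type against nutrient-rich mutant, differs in both line and food and serves to order the groups. Of the 34 genes 1 was higher (germ cell-less) and 2 were lower (maelstrom Dapma7bEVm004746t1 and the vitellogenin receptor Dapma7bEVm009604t1), 8.82% of the members, where 13.9% of all features were called, 7.67% higher and 6.28% lower. Without nutrient-rich replicate 2, 3 genes were higher (germ cell-less, pumilio 2 and bicaudal C Dapma7bEVm003817t1) and the same 2 were lower, where 16.4% of features were called, 8.91% higher and 7.46% lower. In 6 genes the starved wild type lay wholly above the nutrient-rich mutant and in 9 wholly below, where 20.7% and 18.8% of all features did so. By the mean of maelstrom Dapma7bEVm004746t1 the order was nutrient-rich mutant (46.9 CPM), starved mutant (35.5 CPM) and starved wild type (21.2 CPM). The libraries of the starved and the nutrient-rich mutant overlapped, so their order is not settled.

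Summed over the 41 genes, the level was 2961, 3122 and 2991 CPM in the starved mutant, 2188, 2227 and 2262 CPM in the starved wild type and 2196, 5206 and 2137 CPM in the nutrient-rich mutant. The starved mutant lay above the starved wild type in every library, also without its most abundant gene (1865 to 2143 CPM, against 1569 to 1628 CPM). Other genes of these processes were listed by name as well. Of 17 tested small RNA genes outside the members 0 were called by edgeR between the starved lines (2 at an unadjusted p under 0.05), with a median of 0.16, and of 49 recombination and chromosome cohesion genes 0 were called (3 at an unadjusted p under 0.05), with a median of 0.09. When nutrient-rich replicate 2 was left out, 1 of the small RNA genes was lower and 2 of 50 recombination and cohesion genes were higher. The 27 other germ line genes had a median of 0.20, with 22 above 0, and 1 rose and 1 fell: spermatogenesis-associated protein 13 (1.03 ± 0.19, edgeR, adjusted p = 0.0122), which is a guanine nucleotide exchange factor in mammals, and a 63 kDa sperm flagellar membrane protein (-1.58 ± 0.28, adjusted p = 0.0105), neither of them an oocyte gene by name. Of 29 tested when nutrient-rich replicate 2 was left out, 2 were higher and 1 lower. Beside these counts, 2.92% of all features were higher and 4.24% lower with all libraries, and 6.23% and 7.60% without that replicate.

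Yolk proteins, the cargo of the receptor, were lower in the starved mutant. Between the starved lines 11 of 18 yolk protein genes were lower in the mutant and 0 higher, with a median of -1.28. Their summed level was 15790 to 17430 CPM in the starved mutant, 36070 to 46910 CPM in the starved wild type and 73060 to 96050 CPM in the nutrient-rich mutant. Of 79 tested DNA replication and mitosis genes 3 were higher in the starved mutant and 0 lower, with a median of 0.37. Without nutrient-rich replicate 2, 25 were higher and 1 lower. With all libraries, 67 of the 79 had a log2 fold change above 0. In 48 every starved mutant library lay above every starved wild type library and in 4 below, where 20.1% and 21.1% of all features did so. The summed level of these genes was 2278 to 2862 CPM in the starved mutant and 1735 to 1910 CPM in the starved wild type, so this sum too lay higher in every starved mutant library. Mostly upward differences were thus not particular to the germ line members. Of all features 2.92% were higher and 4.24% lower between the starved lines with all libraries. Without nutrient-rich replicate 2 these shares were 6.23% and 7.60%.

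Markers of other tissues were set beside these sums, as lists chosen by name. Muscle markers summed to 14640 to 15610 CPM in the starved mutant, 13720 to 15130 CPM in the starved wild type and 8736 to 11850 CPM in the nutrient-rich mutant. Neuron and eye markers summed to 3202 to 3427 CPM in the starved mutant, 2887 to 3055 CPM in the starved wild type and 1358 to 1909 CPM in the nutrient-rich mutant. Both lists were thus low in the nutrient-rich mutant. Gut markers summed to 5472 to 10790 CPM in the starved mutant, 13350 to 21950 CPM in the starved wild type and 11460 to 17410 CPM in the nutrient-rich mutant. Haemolymph and fat body markers summed to 4037 to 5968 CPM in the starved mutant, 5103 to 6495 CPM in the starved wild type and 7813 to 13570 CPM in the nutrient-rich mutant. By edgeR, 0 of 20 muscle markers passed the test between the starved lines, with 0 under an unadjusted p of 0.05, while 1 of 82 gut markers was higher and 11 were lower, 1 of 65 neuron and eye markers was higher and 1 lower, and 1 haemolymph and fat body marker was lower. Without nutrient-rich replicate 2, 3 of 86 gut markers were higher and 29 lower, 3 of 66 neuron and eye markers higher and 1 lower, and 2 of 17 haemolymph and fat body markers lower. The shares of all features were 2.92% higher and 4.24% lower with all libraries, and 6.23% and 7.60% without that replicate. Between starved and nutrient-rich mutant, edgeR with all libraries called 28 of 65 neuron and eye markers higher when starved and 2 lower. It called 7 of 20 muscle markers higher and 0 lower, and 6 of 82 gut markers higher and 25 lower. Of 16 haemolymph and fat body markers 1 was higher and 8 were lower. The shares of all features there were 11.1% higher and 12.0% lower. The part of these markers in the differences between the groups was not tested.

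**Figure D4:**
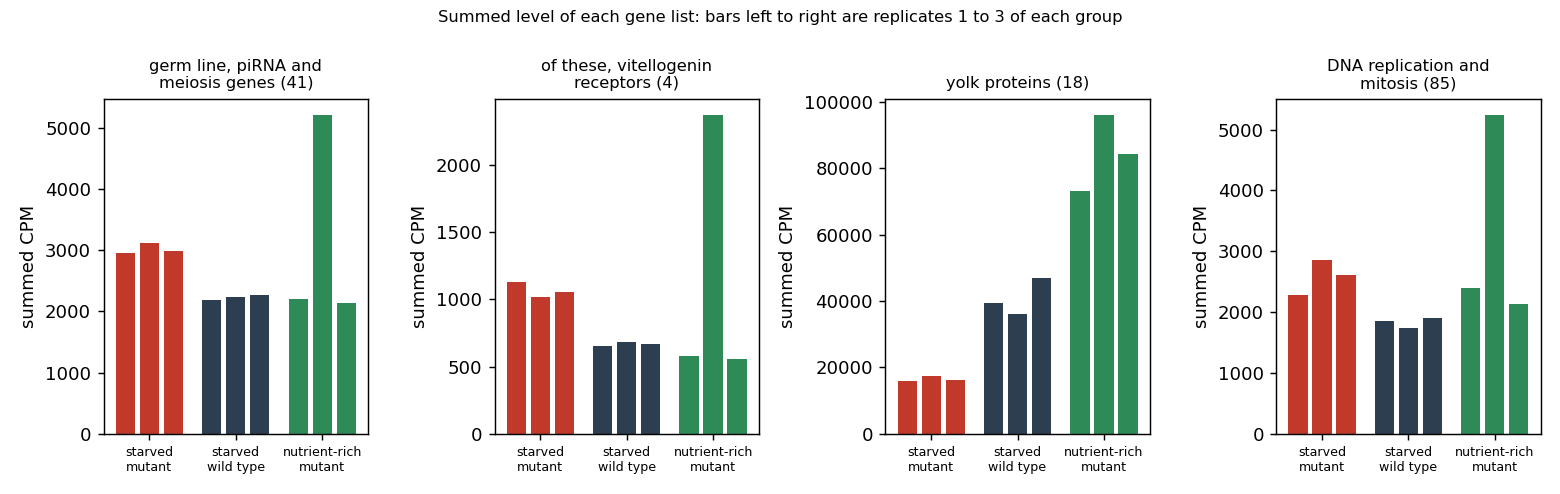
Summed CPM of the 41 germ line, piRNA and meiosis genes, of the vitellogenin receptors among them, of 18 yolk protein genes and of 85 DNA replication and mitosis genes, with 1 bar per library. The starved mutant bars of the first 2 panels are above the starved wild type bars in every library, the yolk protein bars are lowest in the starved mutant, and replicate 2 of the nutrient-rich mutant is the tallest bar of its panel throughout.

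In the deposited annotation 18 of the 41 genes carry a biological process, of which gene silencing by RNA was the most common, in 7 genes. The feature IDs carry 27 location labels of unstated meaning, and 21 of the genes share one with another member. They include 5 genes on 1 label (tudor Dapma7bEVm003013t1, the pumilio 3-like gene and 3 bicaudal C genes) and both aubergine-like genes on another. No sequence of these genes was used here.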

How the data were processed

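Whole-body RNA of 9 libraries was sequenced by the authors, and mapped in CLC Genomics Workbench to the wFleaBase genome of the species. They deposited raw counts of reads per feature (47109 features, 42462 gene IDs) and RPKM values. Tables of the authors' own comparisons (fold changes and FDR p-values) were not used, and 0 per-sample columns were left unused. Testing of the deposited counts used edgeR 4.0.16 (R 4.3.3) after filterByExpr (18675 features) and TMM scaling, in 1 quasi-likelihood fit of 3 groups. The edgeR test gives no standard error. Those printed were worked out as the absolute log2 fold change over the square root of its F statistic. RPKM served to compare levels between genes only. It is not scaled by TMM, so its differences between groups are not those of CPM, and the tests between groups do not use it. Where a gene ID had several features (5 members), the one with the highest mean count was used. Alternatives used DESeq2 1.42.0, limma 3.58.1, other scalings and filters, a replicate block and each library left out. The procedure was also run on simulated counts that held no outlying library, so that run does not cover the effect of such a library. Values in every library are given for members called in the first or second comparison and for the 10 with the highest mean CPM. The members, lists and tests were chosen with earlier results of these data known.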

Additional observations from a re-analysis of the deposited data

How the results depend on the processing

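Of the results on the members as a whole, those named here moved by more than 1.5 times or past their spread, and the cause was not tested. Between the starved lines the count of higher genes, 1 with all libraries, was 5 with only the 6 libraries compared, and 0 to 5 when each library was left out in turn. Their median was 0.405 by library totals. Between starved and nutrient-rich mutant the count of higher genes, 4 with all libraries, was 7 by library totals, 1 with only the 6 libraries compared and 1 to 9 with a library left out, and that of lower genes 1 to 2. The median was 0.373 by library totals, 0.108 with limma-voom and -0.293 to 0.298 with a library left out. Between starved wild type and nutrient-rich mutant the count of higher genes was 3 by library totals, 0 with every feature of at least 1 count, 0 with only the 6 libraries compared and 0 to 3 with a library left out. The count of lower genes was 5 with DESeq2 and 2 to 4 with a library left out, and the median -0.00382 by library totals and -0.436 to 0.0184 with a library left out.

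Without replicate 2 of the nutrient-rich mutant, 15 of 34 log2 fold changes between the mutants and 6 of 34 between starved wild type and nutrient-rich mutant changed sign, of which 5 and 1 were called in that fit. For those called, the values with a library left out are given here. They ran, for starved against nutrient-rich mutant, from -0.345 to 0.705 for Siwi Dapma7bEVm004032t1, -0.507 to 0.661 for bicaudal C Dapma7bEVm000644t1, -0.882 to 0.608 for Dapma7bEVm003846t1, -0.484 to 1.12 for Dapma7bEVm003817t1 and -0.437 to 1.04 for the vitellogenin receptor Dapma7bEVm000342t1. For starved wild type against nutrient-rich mutant they ran from -0.724 to 0.869 for Dapma7bEVm003817t1.

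Over all features, calls between the starved lines were 546 higher and 791 lower, 626 and 589 by library totals, 1193 and 1400 with only the 6 libraries compared, 1206 and 1472 without nutrient-rich replicate 2, and 1329 lower with DESeq2. With a library left out they ran from 220 to 1206 higher and 285 to 1472 lower, lowest without starved wild type replicate 1 and starved mutant replicate 3. Starved mutant replicate 2 and each other starved wild type replicate also lowered both counts over 1.5 times. Between starved wild type and nutrient-rich mutant they were 1432 and 1173, 2123 and 448 by library totals, 892 and 658 with only the 6 libraries compared, and 630 to 1724 and 440 to 1488 with a library left out. Leaving out any starved wild type replicate lowered both of these counts over 1.5 times, and leaving out starved mutant replicate 3 did so for the higher ones. Between the mutants the ranges with a library left out were 1394 to 2778 and 1533 to 2732.

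The groups share replicate numbers. Deviations of same-numbered libraries from their group means correlated at -0.175 to -0.0167 between the starved lines and 0.00973 to 0.237 between the mutants. Between starved wild type and nutrient-rich mutant they correlated at -0.101 to -0.0204. Libraries of different numbers were not compared in this way, so whether the numbers pair the samples was not tested. With a replicate block 0 genes were higher between the starved lines and the median between the mutants was 0.0512.

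The standard error of the log2 fold change between the starved lines was 3.28 for the vitellogenin receptor Dapma7bEVm027447t1, with 62 reads in all, and 0.68 for bicaudal C Dapma7bEVm029302t1, with 228. It was 0.52 for the vitellogenin receptor Dapma7bEVm000342t1, with 83135.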
